A study of Homo sapiens with 3 samples.

Results

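The genes described here were the matrix metalloproteinases (MMP), the ADAM and ADAMTS metalloproteinases and the tissue inhibitors of metalloproteinases (TIMP). They were chosen by gene symbol alone, as MMP, ADAM, ADAMTS or TIMP followed by a number and an optional letter, among probe sets that the platform annotation gives a single gene. Of 19775 genes measured, 62 met this rule: 22 MMP, 18 ADAM, 18 ADAMTS and 4 TIMP genes, read by 142 of the 54675 probe sets. Another 4 symbols of the same pattern, ADAM3A, ADAM3B, ADAM5 and ADAM6, are pseudogenes in RefSeq and were left out. ADAM29 and MMP23B share their probe sets with another gene, and they, ADAM7 and ADAMTS7 were not analysed here.

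The cells were of the established line SKBR3, from a human breast cancer with amplified ERBB2, which is known for lacking oestrogen receptor α. They were kept for 4 h with 10% serum that had been stripped of steroid hormones with charcoal. Then 1 sample of cells received 1 µM estradiol, 1 received 1 µM ERα17p, a synthetic peptide copied from oestrogen receptor α, and 1 received 0.1% ethanol as the vehicle. RNA was taken after 3 h and read on 1 whole-genome array for each condition. With 1 array each, nothing below could be checked against replicates, and no value carries an error or a p-value. The labels do not say what the peptide was dissolved in.

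MMPs are zinc-dependent enzymes, secreted or held at the membrane as inactive precursors, that cut collagens and other proteins of the extracellular matrix. ADAMs sit in the membrane and release the outer parts of other membrane proteins, among them precursors of ligands for the EGF receptor family, while ADAMTS enzymes are secreted and trim procollagens, proteoglycans and von Willebrand factor. TIMPs block the active site of MMPs and of some ADAM and ADAMTS enzymes. In breast tumours much of the MMP supply is known to come from stromal cells rather than from the tumour cells.

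The deposited values, taken as log2, had been centred by probe set on a baseline of the authors. They show differences between arrays gene by gene, but no expression level and no signal over background, so a gene that is hardly expressed cannot be told from an expressed one that did not differ. "Lower" and "higher" as calls mean a difference of at least 1.5-fold (0.585 log2 units) between 2 arrays. The array labelled vehicle stood apart. Over probe sets its values spread more widely, with standard deviations of 0.12 log2 units with estradiol, 0.13 with ERα17p and 0.27 with vehicle, and on the vehicle array 465 of 19775 genes exceeded the baseline by 1.5-fold or more. Since levels cannot be read, the luminal identity of the cells could not be checked on markers. In none of the 3 comparisons did any of 8 luminal, 6 fibroblast, 5 macrophage or 4 endothelial marker genes pass 1.5-fold. Among all genes 3.74% passed it for estradiol against vehicle, 2.73% for ERα17p against vehicle and 0.354% for estradiol against ERα17p. In such bulk RNA, fewer cells of a type and less RNA per cell cannot be told apart.

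Among the metalloproteinase and inhibitor genes, MMP13 was the only member to pass 1.5-fold in any comparison. Estradiol against vehicle gave 1 lower and 0 higher of 62 members (1.61% called), where 3.74% of all genes were called. ERα17p against vehicle gave 1 lower and 0 higher of 62, where 2.73% of all genes were called. Estradiol against ERα17p gave 0 of 62, where 0.354% of all genes were called. The shares called lower among all genes were 2.93%, 2.14% and 0.207% in the same order, and those called higher 0.809%, 0.582% and 0.147%. Counts this small among 62 members do not set them apart from all genes. The first 2 comparisons share the array labelled vehicle.

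Most members lay inside the range that holds the central 90% of all genes. For estradiol against vehicle this range ran from -0.45 to 0.38 log2 units and held 58 of the 62 members. For ERα17p against vehicle it ran from -0.39 to 0.34 and held 54, and for estradiol against ERα17p it ran from -0.25 to 0.27 and held 59. The members' median difference was 0.06 for estradiol against vehicle, 0.06 for ERα17p against vehicle and 0.03 for estradiol against ERα17p, beside 0.03, 0.03 and -0.01 over all genes. The last of the members' medians was -0.03 without multi-transcript probe sets, whose IDs end in _s_at, _x_at or _a_at and which may match several transcripts. Both treated arrays lay above the array labelled vehicle in 34 of 62 members (54.8%; 45.4% of all genes) and below it in 14 (22.6%; 31.2% of all genes).

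**Figure D1:**
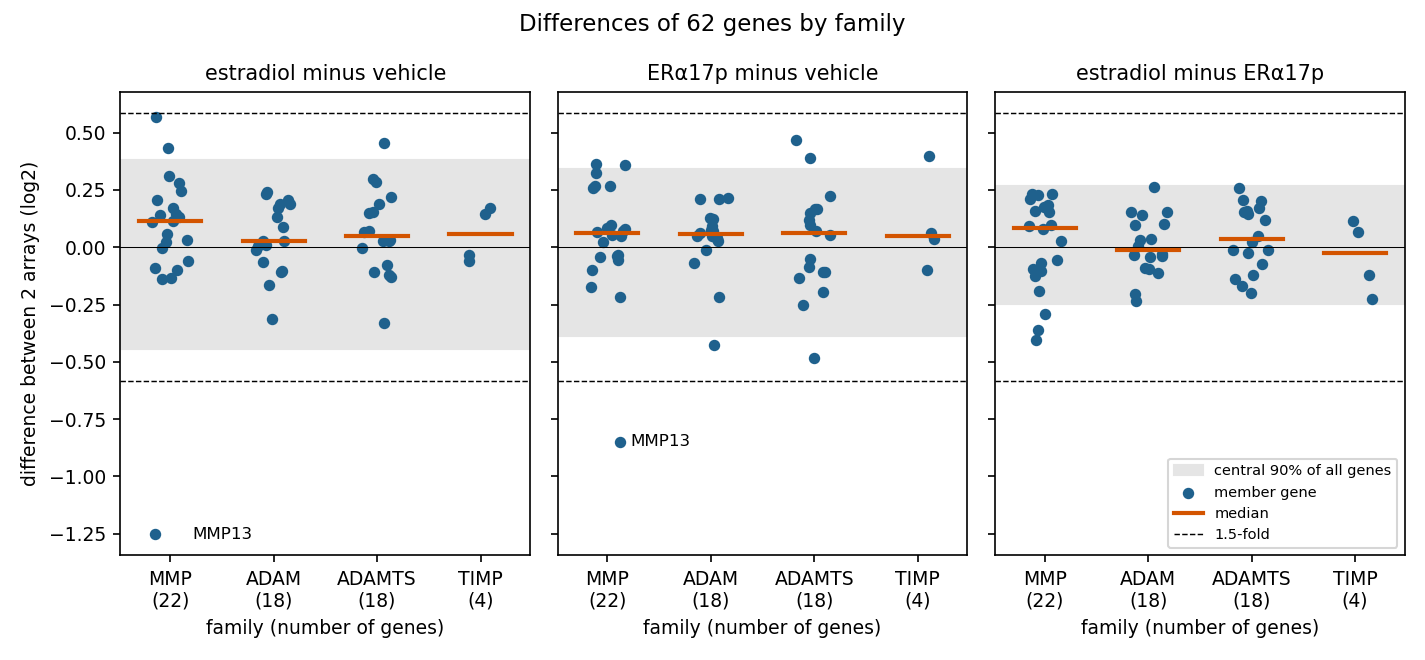
Difference between 2 arrays in log2 units (y axis) for each of the 62 genes (points), by family (x axis), in the 3 comparisons; orange bars are family medians, the grey band holds the central 90% of all 19775 genes and dashed lines mark 1.5-fold. Only MMP13 lies past a dashed line, at -1.25 for estradiol and -0.85 for ERα17p against vehicle.

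Among the collagenases, which cut fibrillar collagen, MMP13 (collagenase 3) stood at -0.32 log2 units on the estradiol array, 0.08 on the ERα17p array and 0.93 on the array labelled vehicle. The array labelled vehicle was thus the high one, and both treated arrays lay far below it. The difference was -1.25 for estradiol against vehicle (2.38-fold lower), the 112th lowest of 19775 genes, and so also passed 2-fold, as 0.895% of all genes did downwards. It was -0.85 for ERα17p against vehicle (1.80-fold lower), the 188th lowest, and did not pass 2-fold, as 0.738% of all genes did downwards. Between the treated arrays it was -0.40 (1.32-fold lower with estradiol), which did not pass 1.5-fold and was the 197th lowest. MMP13 was read by 1 probe set, so that no second reading of the gene exists on these arrays. MMP13 was among the 465 genes that were high on the array labelled vehicle, and the part of that array in the result was not tested. Against the authors' baseline in place of that array, neither treated array had MMP13 past 1.5-fold. This baseline lies midway between 2 of these arrays in 7.28% of all probe sets, so it is not an independent reference.

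The other collagenases did not pass 1.5-fold. MMP1, the interstitial collagenase, stood at -0.04 on the estradiol array, 0.01 on the ERα17p array and 0.05 on the array labelled vehicle. MMP8, the neutrophil collagenase, differed by 0.11 for estradiol and 0.08 for ERα17p against vehicle. All 3 arrays lay close together for both genes.

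MMP13 is the last of 9 MMP genes that follow each other in a cluster on chromosome 11, in the RefSeq order MMP7, MMP20, MMP27, MMP8, MMP10, MMP1, MMP3, MMP12 and MMP13. The other 8 lay between -0.14 and 0.17 for estradiol against vehicle, whereas MMP13 had -1.25. For ERα17p against vehicle the other 8 lay between -0.04 and 0.36, against -0.85 for MMP13. MMP12, the macrophage elastase and nearest listed neighbour of MMP13, differed by 0.36 for ERα17p and 0.17 for estradiol against vehicle, in the opposite direction to MMP13. In estradiol against ERα17p 8 of the 9 lay below 0, led by MMP13 and by MMP3 at -0.36, and none passed 1.5-fold. Over all genes 10663 of 19775 lay below 0 in this comparison. The 9 ran from -0.40 to 0.03, with a median of -0.10.

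**Figure D2:**
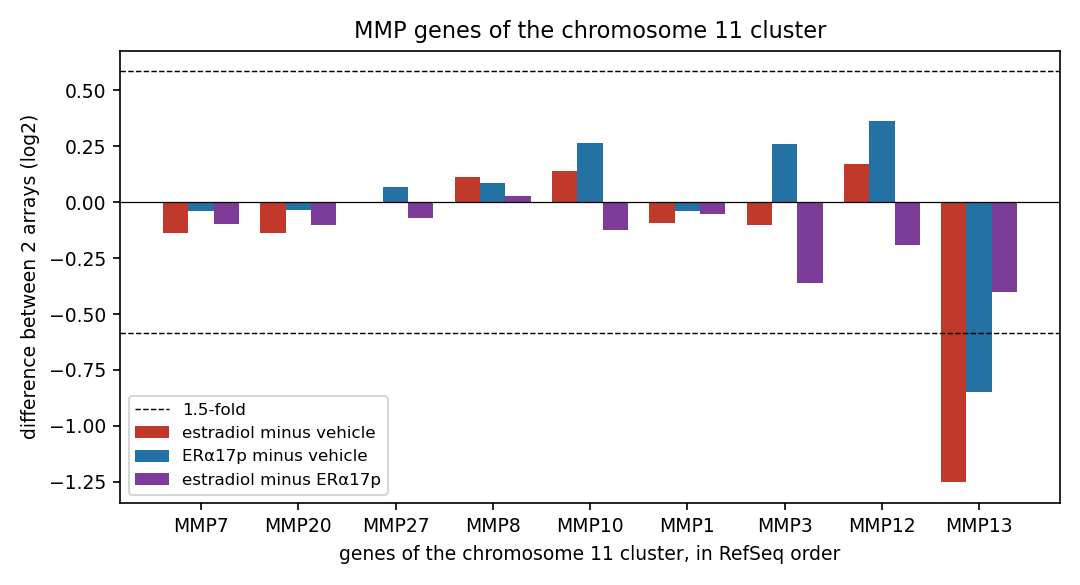
Difference between 2 arrays in log2 units (y axis) for the 9 MMP genes of the chromosome 11 cluster in RefSeq order (x axis), 1 bar for each comparison; dashed lines mark 1.5-fold. MMP13 at the right end has -1.25 and -0.85 against vehicle, while the other 8 genes stay between -0.14 and 0.36 against vehicle.

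Several genes of this cluster are known as targets of AP-1, the transcription factor of the FOS and JUN families, so the promoters were searched for its site, TGANTCA, on both strands. RefSeq promoters of GRCh38.p14, running from 250 bases before to 50 bases after the start of the gene, matched 36 of the 62 members, of which 5 belong to the cluster. No promoter was available for MMP13, MMP1, MMP3 and MMP12, so they were not searched and the search cannot say whether they hold the site. The letters occurred in 4 of the 36 (11.1%), and in 2120 of 27305 promoters of all genes (7.76%). Of the 4, MMP7, MMP20 and MMP10 lie in the cluster and ADAMTS12 on chromosome 5. They are printed because they are the members with an AP-1 match whose values can be set beside those of MMP13, with the matched letters in capitals. All 4 are on the minus strand and are given 5′ to 3′ in the direction of the gene. The MMP7 promoter is chr11:102530698-102530997, that of MMP20 chr11:102625283-102625582, that of MMP10 chr11:102780579-102780878 and that of ADAMTS12 chr5:33891941-33892240.
MMP7: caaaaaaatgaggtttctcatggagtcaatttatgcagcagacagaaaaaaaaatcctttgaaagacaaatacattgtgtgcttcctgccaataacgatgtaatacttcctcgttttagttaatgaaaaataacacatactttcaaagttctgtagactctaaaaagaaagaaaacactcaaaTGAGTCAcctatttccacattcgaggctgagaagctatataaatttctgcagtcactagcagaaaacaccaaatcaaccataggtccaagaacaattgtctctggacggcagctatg
MMP20: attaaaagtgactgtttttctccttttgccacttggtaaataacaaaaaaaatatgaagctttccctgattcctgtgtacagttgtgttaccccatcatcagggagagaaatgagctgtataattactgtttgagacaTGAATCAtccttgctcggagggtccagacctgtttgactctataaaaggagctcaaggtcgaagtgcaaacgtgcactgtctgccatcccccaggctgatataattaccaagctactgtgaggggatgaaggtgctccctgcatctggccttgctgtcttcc
MMP10: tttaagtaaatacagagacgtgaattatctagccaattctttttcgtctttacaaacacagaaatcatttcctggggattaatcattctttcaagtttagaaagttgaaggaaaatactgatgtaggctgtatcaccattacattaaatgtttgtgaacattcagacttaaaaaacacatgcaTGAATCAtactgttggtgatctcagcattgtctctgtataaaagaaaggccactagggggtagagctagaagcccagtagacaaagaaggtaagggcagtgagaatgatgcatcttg
ADAMTS12: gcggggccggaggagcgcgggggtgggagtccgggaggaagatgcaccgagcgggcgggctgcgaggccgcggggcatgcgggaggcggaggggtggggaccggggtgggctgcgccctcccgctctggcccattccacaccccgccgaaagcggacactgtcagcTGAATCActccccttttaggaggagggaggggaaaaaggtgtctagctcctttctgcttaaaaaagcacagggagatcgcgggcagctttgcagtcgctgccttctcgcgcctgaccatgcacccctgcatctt
The first matched base lies at position -67 from the start in MMP7 and MMP10, at -112 in MMP20 and at -84 in ADAMTS12. None of these 4 genes passed 1.5-fold: MMP7 had -0.14 and -0.04 for estradiol and ERα17p against vehicle, MMP20 -0.14 and -0.03, MMP10 0.14 and 0.26, and ADAMTS12 0.45 and 0.47. A loose NF-kB site (GGG and CC with any 5 letters between them, on both strands, where matches may overlap each other) occurred so often that 15833 of 27305 promoters (58.0%) held it, beside 26 of the 36 members (72.2%). No AP-1 match shared bases with an NF-kB match, and a match of letters does not show a bound site.

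The gelatinases, which degrade denatured collagen and basement membrane, did not pass 1.5-fold. MMP9, gelatinase B and a known NF-kB target, stood at 0.0031 on the estradiol array, -0.15 on the ERα17p array and 0.06 on the array labelled vehicle. MMP2, gelatinase A, stood at -0.01, -0.09 and -0.04 in the same order. In gene values the ERα17p array was the lowest of the 3 for both genes, by no more than 0.22 log2 units. The 3 probe sets of MMP2 disagreed in sign, from -0.11 to 0.14 for estradiol and from -0.22 to 0.06 for ERα17p against vehicle. MMP9 was read by 1 probe set.

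Stromelysins, which cut a broad range of matrix proteins and activate other MMP precursors, had values above those of the vehicle array with ERα17p, by less than 1.5-fold. MMP3, stromelysin 1, stood at -0.22 on the estradiol array, 0.14 on the ERα17p array and -0.12 on the array labelled vehicle. MMP10, stromelysin 2, stood at 0.02, 0.15 and -0.12. MMP11, stromelysin 3, is best known from the stroma of breast carcinomas. It had 0.25 for estradiol and 0.07 for ERα17p against vehicle, with its 4 probe sets running from -0.15 to 0.45 and from -0.09 to 0.09.

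Of the matrilysins, the MMPs with the shortest proteins, MMP7 differed by -0.14 and -0.04 for estradiol and ERα17p against vehicle. MMP26 stood at 0.01 on the estradiol array, 0.30 on the ERα17p array and -0.02 on the array labelled vehicle. Its difference of -0.29 between estradiol and ERα17p put it among the 3 members below the central 90% of genes in that comparison, with MMP13 and MMP3.

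In gene values the membrane-type MMPs, which act at the cell surface, all lay higher on the estradiol array than on either other array, without reaching 1.5-fold. Their differences ran from 0.12 to 0.43 for estradiol against vehicle (6 of 6 above 0, median 0.24) and from 0.09 to 0.23 for estradiol against ERα17p (6 of 6, median 0.18). Over all genes 56.1% and 45.9% lay above 0 in these comparisons. For ERα17p against vehicle 5 of 6 lay above 0 (median 0.07), and 4 of 6 with each array recentred on its median. MMP14, the activator of pro-MMP2, was the highest of them in both comparisons with vehicle, at 0.17 on the estradiol array, 7.3e-05 on the ERα17p array and -0.26 on the array labelled vehicle. Its 4 probe sets ran from 0.13 to 0.63 for estradiol and from 0.04 to 0.41 for ERα17p against vehicle, so that all lay above 0 and 1 passed 1.5-fold. MMP15 stood at 0.04, -0.19 and -0.27, and MMP25, a leukocyte enzyme held by a lipid anchor, at 0.23, -0.0049 and 0.10. MMP25 was the highest of the 6 for estradiol against ERα17p, at 0.23. Single probe sets were less uniform in that comparison. They ran from -0.04 to 0.30 for MMP16, from 0 to 0.19 for MMP24 and from 0.01 to 0.41 for MMP14.

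MMP19, a widely expressed basement membrane protease, was the highest member for estradiol against vehicle. It stood at 0.16 on the estradiol array, -0.04 on the ERα17p array and -0.40 on the array labelled vehicle. The difference of 0.57 was just short of 1.5-fold, and its 2 probe sets gave 0.71 and 0.43. For ERα17p against vehicle MMP19 differed by 0.36. MMP21 stood at 0.0038, -0.23 and -0.05, and MMP28, epilysin, had 5 probe sets from -0.22 to 0.25 for estradiol against vehicle.

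**Figure D3:**
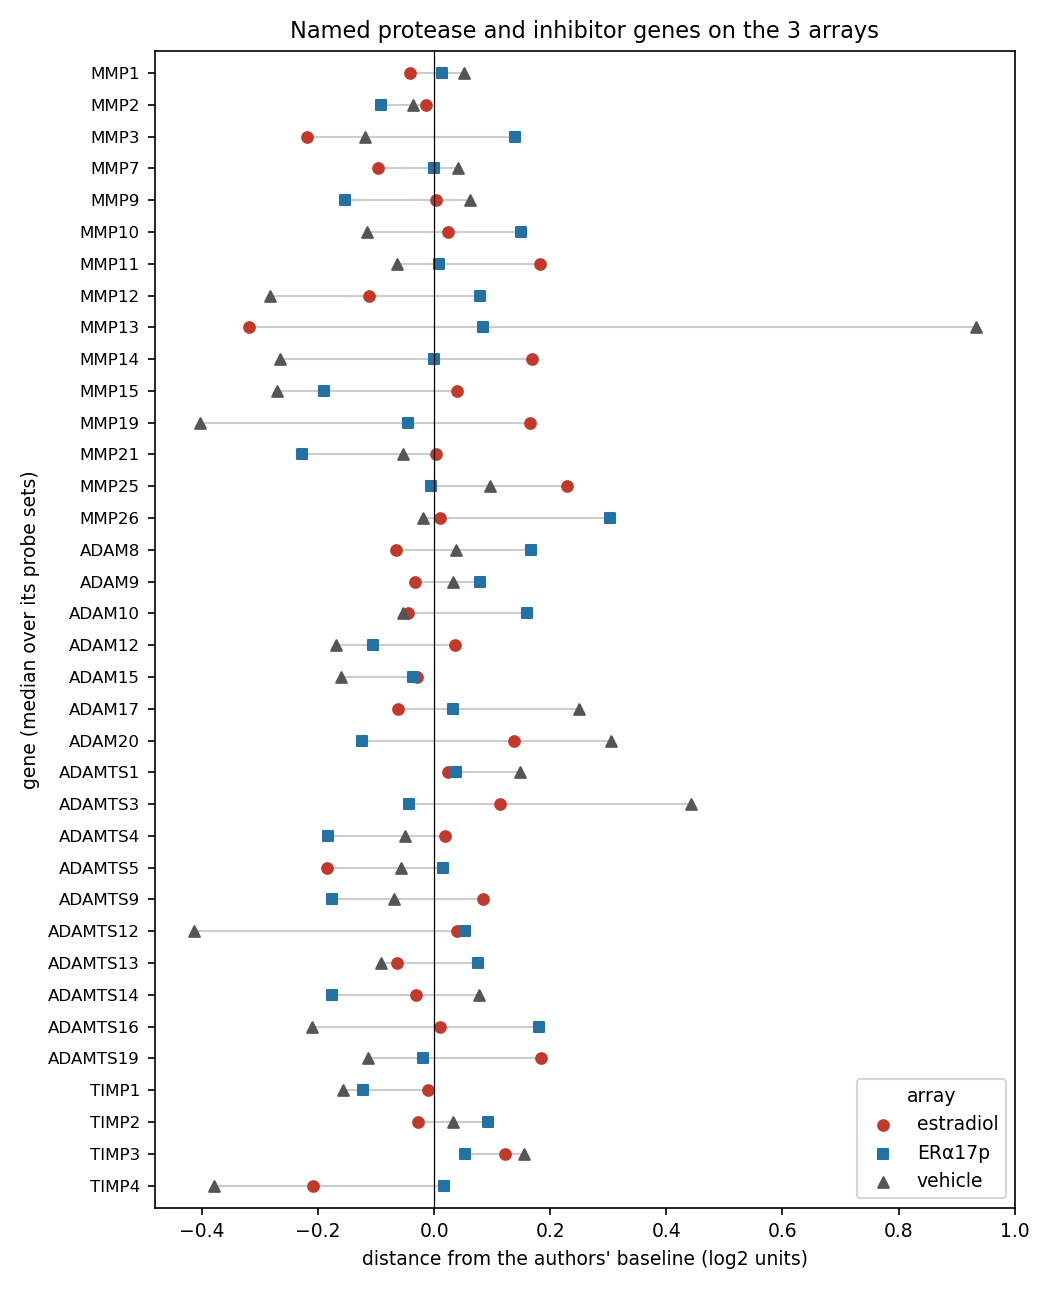
Distance from the authors' baseline in log2 units (x axis) on the estradiol array (circles), the ERα17p array (squares) and the array labelled vehicle (triangles) for 36 named member genes (y axis); a grey line joins the lowest and highest array. MMP13 has the widest spread, from -0.32 with estradiol to 0.93 on the array labelled vehicle, and the vehicle triangle is the outermost point of MMP19, ADAMTS12 and ADAMTS3.

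The ADAM sheddases did not pass 1.5-fold in any comparison. ADAM17, which releases TNF and several ligands of the EGF receptor, was the lowest of them in both comparisons with vehicle, at -0.06 on the estradiol array, 0.03 on the ERα17p array and 0.25 on the array labelled vehicle. The differences of -0.31 and -0.22 came from 3 probe sets that all lay below 0, from -0.40 to -0.17 for estradiol and from -0.41 to -0.02 for ERα17p against vehicle. The only one that is not a multi-transcript probe set gave the smallest drops, -0.17 and -0.02. ADAM10, the sheddase of Notch, of E-cadherin and of ERBB2 itself, had 0.01 and 0.21. Its 3 probe sets disagreed in sign, from -0.35 to 0.13 for estradiol and from -0.05 to 0.40 for ERα17p against vehicle.

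ADAM8, an enzyme linked to invasion of breast cancer cells, stood at -0.06 on the estradiol array, 0.17 on the ERα17p array and 0.04 on the array labelled vehicle. ADAM9 stood at -0.03, 0.08 and 0.03, and ADAM15 at -0.03, -0.04 and -0.16. ADAM12, whose long form stays in the membrane and whose short form is secreted, had 0.20 and 0.06 for estradiol and ERα17p against vehicle. Of its 5 probe sets, 1 went against the others, at -0.36 for estradiol and -0.42 for ERα17p. Over the 9 sheddases, 5 of 9 lay above 0 for estradiol and 8 of 9 for ERα17p against vehicle (4 and 7 of 9 with the arrays recentred), with medians of 0.01 and 0.06. Among all genes 56.1% and 58.0% lay above 0 (51.2% and 49.9% with the arrays recentred). Probe sets of ADAM9, ADAM19, ADAM28 and ADAM33 also lay on both sides of 0 for ERα17p against vehicle.

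ADAMs without a working zinc site serve in adhesion rather than in cutting, in nerve cells or on sperm. Of the 6 measured, 0 passed 1.5-fold, and their differences ran from -0.11 to 0.24 for estradiol and from -0.07 to 0.21 for ERα17p against vehicle. ADAM22, a receptor of the synaptic protein LGI1, had the most probe sets of any member, 8, which ran from -0.12 to 0.64 for estradiol against vehicle around a gene value of 0.19. Of the ADAMs in neither group, ADAM20, a testis gene, stood at 0.14 on the estradiol array, -0.12 on the ERα17p array and 0.30 on the array labelled vehicle. Its -0.43 for ERα17p against vehicle lay outside the central 90% of genes, and both its probe sets lay below 0, at -0.33 and -0.52.

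Proteoglycan-cutting ADAMTS genes, known as aggrecanases and versicanases, did not pass 1.5-fold. ADAMTS1 stood at 0.02 on the estradiol array, 0.04 on the ERα17p array and 0.15 on the array labelled vehicle, and its 2 probe sets disagreed, at -0.43 and 0.19 for estradiol against vehicle. ADAMTS5, the main aggrecanase of mouse cartilage, stood at -0.18, 0.02 and -0.06. ADAMTS4 stood at 0.02, -0.18 and -0.05, and ADAMTS9 at 0.08, -0.18 and -0.07. In gene values the ERα17p array was thus the lowest of the 3 for ADAMTS4 and ADAMTS9 and the highest for ADAMTS5. ADAMTS4 had 1 probe set, while ADAMTS9 and ADAMTS5 had 4 each, which disagreed in sign for ERα17p against vehicle. They ran from -0.37 to 0.11 for ADAMTS9 and from -0.03 to 0.14 for ADAMTS5. For ERα17p against vehicle 5 of the 7 lay below 0, with a median of -0.11 (the value of ADAMTS9), while over all genes 58.0% lay above 0. When differences were taken for each probe set first, their median for ADAMTS9 was -0.0012. The 2 probe sets of ADAMTS1 had -0.34 and 0.12 for ERα17p against vehicle.

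Against vehicle the procollagen N-proteinases differed among themselves. ADAMTS3, which also activates the lymphatic growth factor VEGFC, stood at 0.11 on the estradiol array, -0.04 on the ERα17p array and 0.44 on the array labelled vehicle. Its differences of -0.33 and -0.49 came from 1 probe set and were the second lowest of the members in both comparisons with vehicle. ADAMTS14 had -0.11 and -0.25, whereas ADAMTS2 had 0.29 and 0.12. For estradiol against ERα17p all 3 lay above 0, from 0.14 to 0.17, as did 45.9% of all genes. The 3 probe sets of ADAMTS2 ran from -0.12 to 0.24 in that comparison.

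Among the other ADAMTS genes, ADAMTS12, a protease of cartilage oligomeric matrix protein, stood at 0.04 on the estradiol array, 0.05 on the ERα17p array and -0.41 on the array labelled vehicle. Both treated arrays lay close together, and the array labelled vehicle was the low one. Its differences were 0.45 for estradiol and 0.47 for ERα17p against vehicle. The 2 probe sets gave 0.58 and 0.33 for estradiol and 0.66 and 0.27 for ERα17p, so that the call turns on the probe set: with the specific one alone ADAMTS12 was higher with ERα17p. ADAMTS16 stood at 0.01, 0.18 and -0.21, and ADAMTS19 at 0.18, -0.02 and -0.11. ADAMTS13, the protease of von Willebrand factor, had 0.03 and 0.17 against vehicle.

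The inhibitors did not pass 1.5-fold either. TIMP1 stood at -0.01 on the estradiol array, -0.12 on the ERα17p array and -0.16 on the array labelled vehicle. TIMP2, which also helps MMP14 to activate pro-MMP2, stood at -0.03, 0.09 and 0.03. TIMP3, the matrix-bound inhibitor of ADAM17, had -0.03 and -0.10 against vehicle, but its 4 probe sets ran from -0.41 to 0.26 for estradiol. TIMP4 stood at -0.21, 0.02 and -0.38, which gave 0.40 for ERα17p against vehicle, the second highest of all 62 members. Differences of the 4 inhibitors ran from -0.06 to 0.17 for estradiol and from -0.10 to 0.40 for ERα17p against vehicle.

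**Figure D4:**
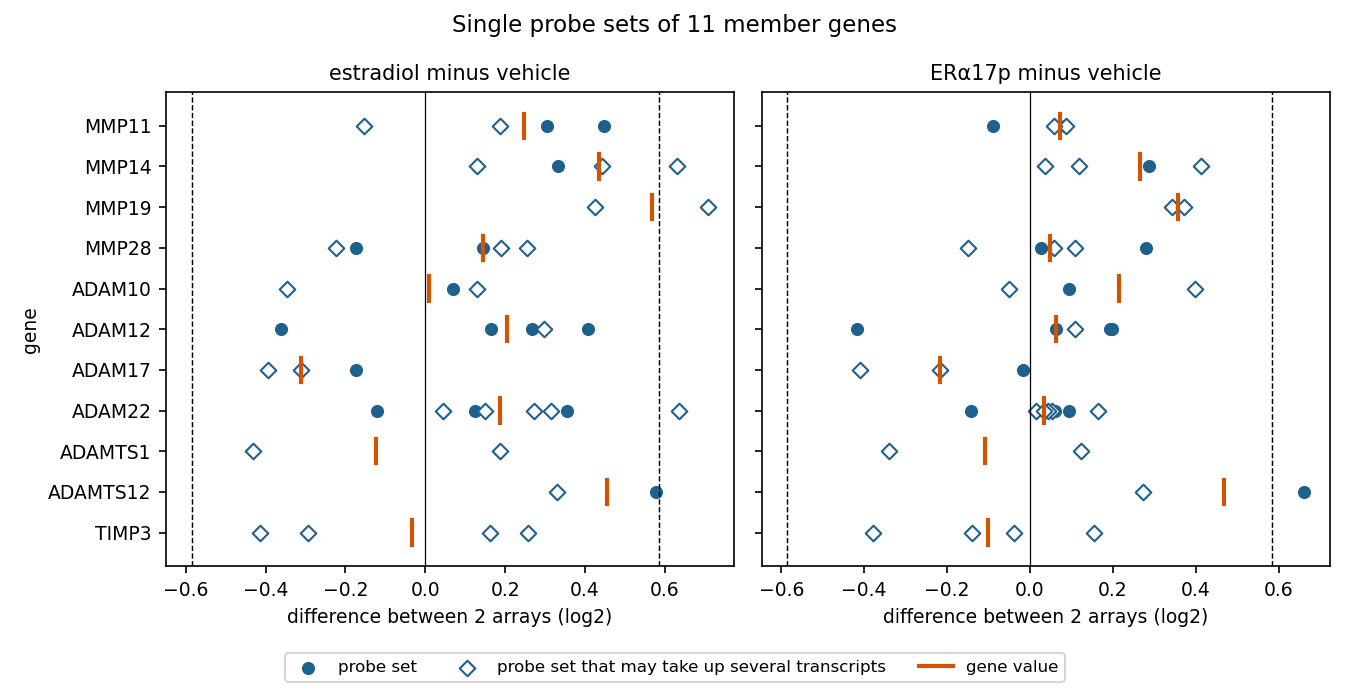
Difference between 2 arrays in log2 units (x axis) for every probe set of 11 member genes (y axis), for estradiol and ERα17p against vehicle; open diamonds are multi-transcript probe sets, orange ticks the gene values and dashed lines 1.5-fold. The genes were chosen for display after their values were seen. Probe sets of ADAM17 and MMP14 lie on 1 side of 0, while those of ADAM12, ADAM22, MMP28 and TIMP3 lie on both sides.

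How far a gene value can be trusted was read from the 42 members with at least 2 probe sets. All probe sets of a gene had the same sign in 20 of the 42 for estradiol against vehicle (47.6%; 46.3% of 10523 genes in all), in 20 for ERα17p against vehicle (47.6%; 45.9%) and in 19 for estradiol against ERα17p (45.2%; 38.5%). The median range between the probe sets of a member was 0.26, 0.23 and 0.23 log2 units in the same order. The absolute gene differences themselves had a median of 0.13, 0.10 and 0.12 over the 62 members, beside 0.14, 0.12 and 0.09 over all genes. Of the 142 probe sets, 1 was lower and 3 were higher by 1.5-fold for estradiol against vehicle: those of MMP13, and 1 each of MMP14, MMP19 and ADAM22. For ERα17p against vehicle 1 was lower and 1 higher, of MMP13 and ADAMTS12, and for estradiol against ERα17p there were 0. The shares called over all probe sets were not computed, so these counts of probe sets have no background beside them.

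Partners and regulators of these enzymes, 33 genes in all, showed 0 calls in each of the 3 comparisons. The shares called among all genes were 3.74% for estradiol against vehicle, 2.73% for ERα17p against vehicle and 0.354% for estradiol against ERα17p. FURIN, the convertase that activates MT-MMP and ADAM precursors, differed by 0.11 and 0.22 for estradiol and ERα17p against vehicle. RECK, a membrane-anchored MMP inhibitor, had -0.12 and -0.06. RHBDF2, the iRhom that escorts ADAM17 to the surface, had -0.08 for estradiol against vehicle. TSPAN33 and TSPAN17, tetraspanins that steer ADAM10, had 0.35 and 0.31 for estradiol against ERα17p. The other listed tetraspanins did not share this height, with 0.10 for TSPAN14, 0.08 for TSPAN10, -0.03 for TSPAN5 and -0.26 for TSPAN15. TFPI2, a serine protease inhibitor, had -0.33 in the same comparison. Medians of the list were 0.05, 0.02 and 0.02 for estradiol against vehicle, ERα17p against vehicle and estradiol against ERα17p.

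Matrix substrates gave 0 calls among 22 measured genes in each comparison, where 3.74%, 2.73% and 0.354% of all genes were called. Their medians were 0.08, 0.10 and -0.02 in the same order. NCAN, a proteoglycan of brain matrix, had the widest difference, 0.54 for estradiol against ERα17p and 0.44 for estradiol against vehicle. TNC, the matrix protein tenascin C, had 0.39 for ERα17p against vehicle, and COL4A2, a basement membrane collagen chain, had 0.32.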

How the data were processed

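RNA of 3 SKBR3 samples was hybridised to 1 whole-genome Affymetrix array for each condition. The deposited values came from RMA by the authors (background correction, quantile normalisation, log-scale summary of probes), per the submitters' processing notes, with its version not given in the sources used here. As deposited by the authors, the values are taken as log2, the scale RMA yields. Column medians near 0 (-0.00, 0.00 and -0.02 for the estradiol, ERα17p and vehicle arrays), and mirror-image values between 2 columns in 3979 of 54675 probe sets (7.28%, tolerance 1e-06, values over 0.001), show that each probe set was centred afterwards on a baseline that those sources do not describe. For this reason no filter on dim probe sets could be set.

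Single gene symbols named 41091 probe sets, and 1801 with several symbols and 62 controls were left out. Gene values are medians over probe sets (pandas 2.3.3), and differences were taken between 2 arrays. All 62 members matched RefSeq (GRCh38.p14) by Entrez ID, with 0 symbols changed. Named genes were those past 1.5-fold, the 5 most extreme each way in each comparison, and a list of members with textbook roles. A few more were named after their values were seen. The members and lists were chosen with earlier results of these data known. The functions were tested on simulated data. With 1 array per condition no test was possible, and the number of arrays limits the precision. Alternatives were the mean over probe sets, leaving out multi-transcript probe sets, recentred arrays, a 2-fold threshold and the baseline as reference. The pseudogene symbols and the median of probe-set differences were added after the data were seen.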

Additional observations from a re-analysis of the deposited data

How the results depend on the processing

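Each comparison kept its count of members under the mean over probe sets, recentred arrays, the pseudogene symbols and the median of probe-set differences. With the authors' baseline in place of the array labelled vehicle, 0 members were lower with estradiol and 0 with ERα17p, in place of 1 each. The ERα17p array was 0.085 higher than the baseline for MMP13, so that its direction there reversed. That baseline is not an independent reference, since the mirror-image values place it midway between 2 of these arrays in 7.28% of probe sets. The array labelled vehicle alone held the height of MMP13 (0.93). A 2-fold threshold left MMP13 with estradiol and 0 lower members with ERα17p. Without multi-transcript probe sets 53 members remained measured, and 1 was higher with ERα17p, ADAMTS12 (0.66). The members' median for estradiol against ERα17p then was -0.03. Of 72 values of named members against the baseline, 26 moved by more than 0.16 log2 units, the standard deviation over all genes between both treated arrays, as did 4 of 90 without such probe sets and 0 of 108 under each of the other 3 settings run on single genes. No replicate could be left out. No paired analysis was possible because each condition has 1 array. The planned filter on dim probe sets was not run, since the values hold no levels or signal over background.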

Other observations

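The 4 symbols of the same pattern that RefSeq lists as transcribed pseudogenes did not pass 1.5-fold. ADAM6 had the widest difference among them, at 0.31 on the estradiol array, 0.17 on the ERα17p array and -0.09 on the array labelled vehicle. That is 0.40 for estradiol and 0.26 for ERα17p against vehicle. ADAM5 had 0.25 and 0.27, while ADAM3A and ADAM3B lay between -0.13 and 0.06 in both comparisons.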
